A study of Bos taurus with 16 samples.

Results

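The genes NPY, NRGN, CSPG4, SSPO, OC90, KRT35, MYOD1 and CLDN7, 8 of the 16966 symbols on the array, are known mainly from nerve, inner ear, hair, muscle and epithelium and were followed here in bovine whole blood RNA. They were chosen because they gave signal in some of the blood pools, so their levels and differences are a description and carry no test. All 23 probes of these 8 symbols were read, of 43653 non-control probes on a single-colour Agilent bovine oligonucleotide array. NPY, OC90, KRT35 and CLDN7 had 1 probe each, NRGN 2, MYOD1 3, CSPG4 5 and SSPO 9. The spots were read on 16 arrays, 4 for each of 4 groups.

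Female lactating Holstein Friesian cows gave jugular blood at day 0 and at day 60, with 5 cows in each of a probiotic and a water-only arm. The probiotic arm took the oral FASTtrak microbial pack of yeast culture, chicory root and fermentation products or extracts of Enterococcus faecium, Lactobacillus acidophilus, Aspergillus oryzae and Bacillus subtilis, and the untreated arm took water. The 4 groups were day 0 blood taken before supplementation, probiotic blood at day 60, untreated blood at day 60, and probiotic day 60 blood that received lipopolysaccharide (LPS, a bacterial cell wall component) ex vivo at 100 ng/ml. All blood was incubated for 30 min at 37 °C with 5% CO2, and total RNA came from a kit that lyses red and white cells differentially. RNA was pooled over the cows of a group, and that pool was hybridised 4 times, so the spread between arrays is technical and holds no variation between cows. The labels do not settle whether the day 0 pool holds cows of both arms. Each group lay on its own slide, and only the probiotic and LPS slides shared a scan day, which means that an effect of the slide cannot be told apart from one of the group.

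The genes have separate known roles. NPY is a secreted neuropeptide of sympathetic and central neurons, and NRGN (neurogranin) is a postsynaptic calmodulin-binding protein that is also a known platelet transcript. CSPG4 is a membrane proteoglycan of pericytes and glial precursors, and SSPO (SCO-spondin) is a large glycoprotein secreted into cerebrospinal fluid with thrombospondin-type repeats. OC90 is the main matrix protein of otoconia in the inner ear, KRT35 a keratin of the hair shaft, MYOD1 the transcription factor that commits cells to skeletal muscle, and CLDN7 a claudin of epithelial tight junctions. None of them is a classical marker of a white blood cell, so on these arrays the question is first what each probe measured and whether probes of 1 gene gave the same picture.

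Signal is given as net signal, the scanner software's background-subtracted intensity in scanner units before any correction for trends over the array. A spot counts as above background where that software called it well above background. A percentile is the place of a probe's net signal among all non-control probes of the same array, and does not depend on how arrays are scaled to each other.

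The probe sequences are the only direct evidence on what a spot could bind, and the ones that carry the results are printed 5′ to 3′ from the deposited annotation. The first pair is shown because 1 run, in capitals, is shared by the probes of the unrelated genes NPY and NRGN. A window of each probe is printed.
NPY A_73_111682, probe bases 19 to 48: tgaaacttGCTCTCCAGTCTCtgcctcttt
NRGN A_73_105949, probe bases 15 to 44: tttagttaGCTCTCCAGTCTCgtatggtcc
The shared run GCTCTCCAGTCTC is 13 bases long and stood in 2 of 43653 probes on this strand, these 2. On the other strand it stood in 1 probe, of LGMN. Runs of this length were common in general: 91.8% of all probes shared at least 13 bases with a probe of another gene, 54.9% at least 14, 23.0% at least 15 and 10.4% at least 16.

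The next pair is of MYOD1 and overlaps by the 29 bases in capitals, the 3′ end of the first probe and the 5′ start of the second.
MYOD1 A_73_P100571: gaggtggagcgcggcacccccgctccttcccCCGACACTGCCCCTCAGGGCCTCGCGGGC
MYOD1 A_73_P101056: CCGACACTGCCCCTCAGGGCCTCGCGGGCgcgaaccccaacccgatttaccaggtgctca
The first of them held 78.3% G and C, a share reached by 48 of all probes (0.110%), and the second 68.3%. The pair is shown because probes of 1 transcript that lie so close would be placed side by side in most expression summaries, while their signals below are not alike.

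Of SSPO, the window of the first probe has the hexamer AATAAA in capitals, the usual polyadenylation signal. The second probe has in capitals its longest stretch of G and C alone, 15 bases.
SSPO A_73_118541, probe bases 26 to 55: tagcatattccaAATAAAgtgacattggca
SSPO A_73_P109171: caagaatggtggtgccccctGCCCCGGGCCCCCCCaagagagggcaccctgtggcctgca
AATAAA stood in 4083 of all probes on this strand (9.35%) and in 1 of the 23 member probes. The longest run that A_73_P109171 shared with a probe of another gene on the same strand was 13 bases, with PTPN7.

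The remaining probes that carried signal are shown without capitals, since no run in them was singled out.
CSPG4 A_73_P323426: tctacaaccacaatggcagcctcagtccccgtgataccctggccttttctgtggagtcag
OC90 A_73_109433: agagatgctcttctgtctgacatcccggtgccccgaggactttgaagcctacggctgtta
KRT35 A_73_115094: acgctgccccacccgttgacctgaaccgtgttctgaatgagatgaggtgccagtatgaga
CLDN7 A_73_108585: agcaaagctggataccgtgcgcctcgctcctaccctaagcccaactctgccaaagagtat
On the same strand, the longest run with a probe of another gene was 13 bases for CSPG4 and OC90 and 12 bases for KRT35 and CLDN7. These searches cover the 60-base probes of the array only; transcripts that no probe represents were not searched, and the part of cross-hybridisation in any signal was not tested.

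The groups were not equally bright. On the day 0 arrays 17.9 ± 6.59% (SD, n = 4) of spots were well above background, on the probiotic 32.9 ± 4.70%, on the untreated 15.2 ± 3.06% and on the LPS arrays 34.4 ± 8.53%. Day 0 replicates 2, 3 and 4 and LPS replicate 4 had been multiplied by a smooth surface in the processed signal, which the net signal leaves out. Blood cell markers were present in part: 26 of 42 leukocyte probes and 6 of 13 globin probes passed the filter on dim probes below, and the B-cell gene CD79A, the lysozyme gene LYZ and the integrin ITGB2 were above background on all 16 arrays. Other leukocyte genes were dark. CORO1A was above background on none of the 16 arrays, and CD79B and S100A9 on no untreated array. S100A8 was so on no day 0 or untreated array, and CD2 on no day 0 array. The summed net signal of the leukocyte probes ran from 128704 to 209060 in the probiotic and from 6781 to 20272 in the untreated group, with 1 and 4 of 18 genes above background on none of those arrays. The sums ran from 7318 to 51788 on the day 0 and from 18315 to 253469 on the LPS arrays. Between probiotic and untreated arrays some results below went the same way as these sums, KRT35 among them. Others went the opposite way, NPY, NRGN and CSPG4 among them. The part of the sums in these results was not tested. In pooled blood RNA, fewer cells of a type and less RNA per cell cannot be told apart.

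Of the 23 member probes, 4 were above background on all 16 arrays, 5 on no array, and 11 passed the filter, which asked for all 4 arrays of at least 1 group. The 4 were those of KRT35 and CLDN7, 1 of SSPO and 1 of MYOD1. Over all probes 671 (1.54%) were above background on all 16 arrays and 12198 (27.9%) passed the filter. The other 12 member probes did not pass, 7 of them with signal on some arrays. Every one of the 8 genes kept at least 1 probe, which the choice of genes by their signal favours. No member spot carried an outlier flag.

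**Figure D1:**
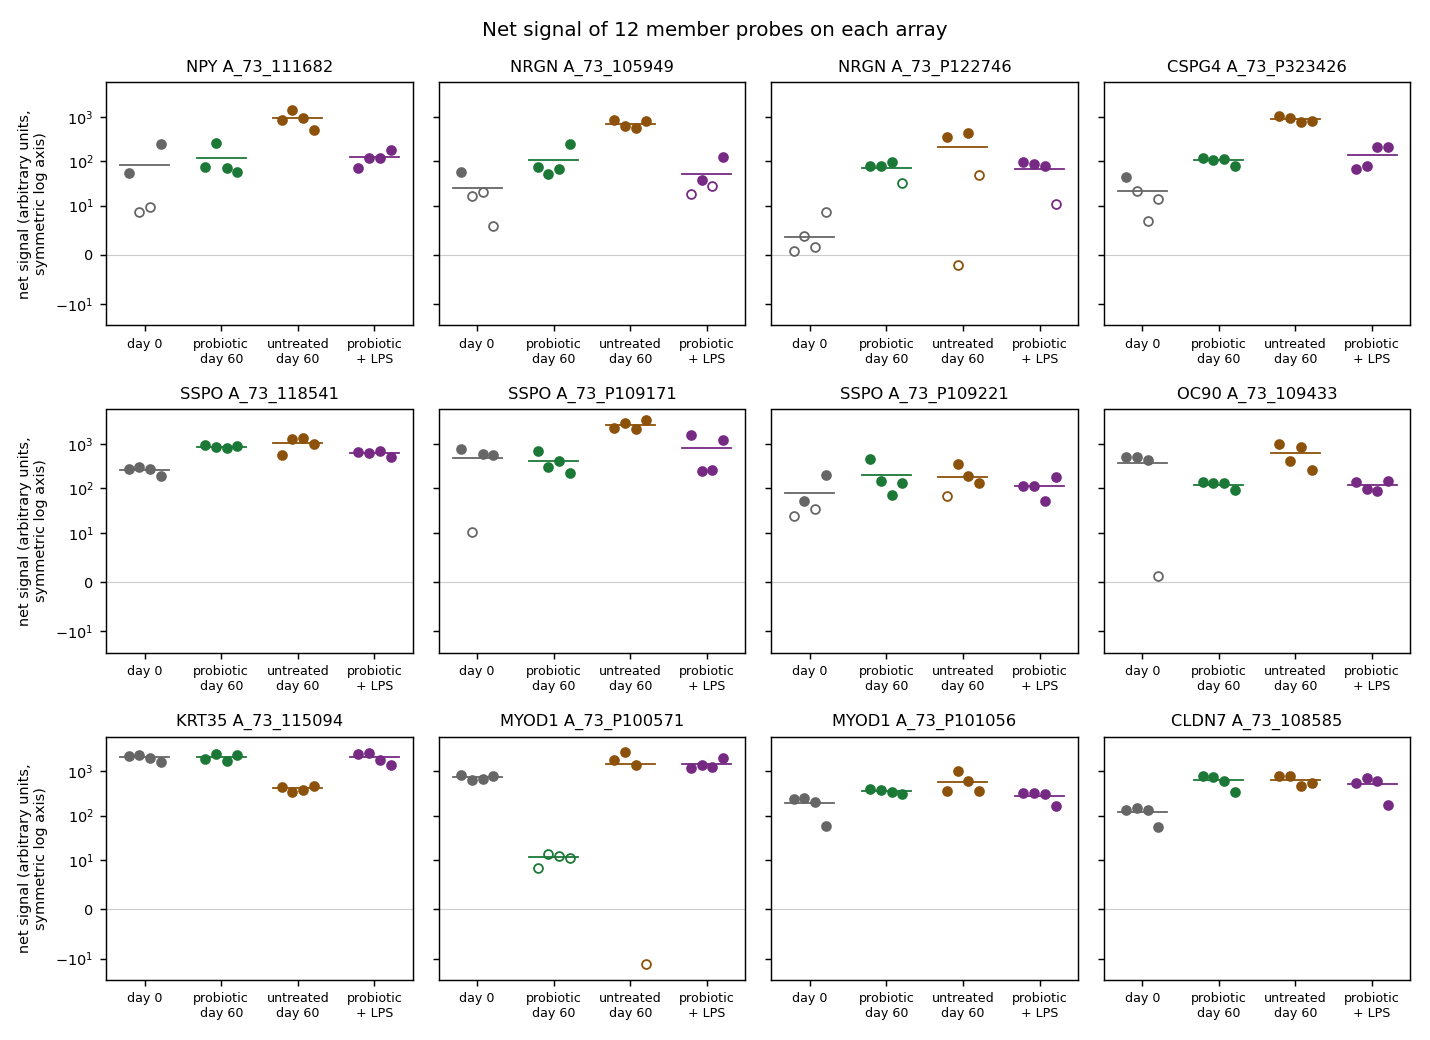
Net signal (scanner units, symmetric log axis) on each array for the 11 member probes that passed the filter and the second NRGN probe. Points are arrays, filled where the spot was well above background, and lines are group means. NPY, NRGN A_73_105949 and CSPG4 were highest on the untreated arrays, KRT35 was lowest there, and MYOD1 A_73_P100571 was near background on all 4 probiotic arrays and on untreated replicate 4.

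The nerve genes came first in the untreated pool. The NPY probe read 53.4, 8.79, 9.64 and 251 on day 0 replicates 1 to 4, 75.7, 259.7, 70.9 and 56.6 on the probiotic arrays, 867, 1427, 934 and 503 on the untreated arrays and 70.5, 117, 120.0 and 184 on the LPS arrays. All untreated arrays lay above all others, while the other 3 groups overlapped. Its percentile was 97.97 ± 1.36 (SD, n = 4) on the untreated arrays, against 73.9 ± 6.13 on the probiotic and 75.7 ± 17.5 on the day 0 arrays. Day 0 replicate 4, at 251, stood well apart from the other day 0 arrays.

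The NRGN probe A_73_105949 was also highest on the untreated arrays. It gave 56.3, 16.3, 19.96 and 5.94 at day 0, 74.6, 52.9, 65.8 and 241 on the probiotic, 829.9, 620.3, 572 and 809 on the untreated and 18.1, 37.5, 28.2 and 122 on the LPS arrays. The untreated arrays again lay above all others, at percentile 97.4 ± 0.95 against 72.9 ± 9.07 in the probiotic group. The second NRGN probe, A_73_P122746, did not pass the filter and was uneven among repeats of the untreated pool, at 351, -1.94, 428 and 48.3. On the probiotic arrays it gave 76.7, 78.7, 95.3 and 32.7, and at day 0 it was at background with 0.81, 3.90, 1.52 and 8.64. So the high signal in the untreated pool stood on 4 of 4 arrays by the first probe and on 2 of 4 by the second, and the probes differed in their call on 7 of 16 arrays. Among the 4579 genes with 2 probes and at least 1 spot above background on any array, the median was 5 arrays with unlike calls. Of these genes 42.0% had 7 or more. Genes never above background are left out of this and the like counts below.

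Since NRGN is also a platelet transcript, platelet genes are given beside it. Of 30 platelet probes 8 passed the filter, and none was above background on all 4 untreated arrays. Their summed net signal ran from 19255 to 25471 on the probiotic, 931 to 2528 on the untreated, 1312 to 5555 on the day 0 and 3488 to 25289 on the LPS arrays. Among single genes, F13A1, the factor XIII A chain, read 16150 to 18242 on the probiotic arrays and -16.8 to 4.69 on the untreated ones, and the chemokine PPBP 324 to 480 against -49.4 to 56.9. CLU, clusterin, overlapped, at 588 to 710 on the probiotic and -17.9 to 812 on the untreated arrays. On no untreated array were 6 of the 11 platelet genes above background, PF4 and PPBP among them. The platelet sums were low in the pool where the NRGN probe was highest, overlapping there with day 0 alone. They are net signals of unequally bright groups, and F13A1 made up most of the probiotic sum. The median percentile of the platelet probes was 46.3 on the probiotic, 44.7 on the untreated, 44.7 on the day 0 and 48.2 on the LPS arrays. Since 8 of the 30 probes passed the filter, this median is one of dim probes. It cannot show whether the brighter probes differed by rank. Above background on all 4 arrays were 6 platelet probes in the probiotic, 4 in the LPS, 1 in the day 0 and 0 in the untreated group. The part of platelets in the NRGN signal was not tested.

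The LGMN probe that carries the shared NPY and NRGN run on the opposite strand is no member, and its part in the likeness of these 2 probes was not tested. Over the 16 arrays, the other probes most like NPY in scaled processed signal were those of CSDC2 (r = 0.958) and NFKBID (r = 0.940), whose spots lay 11 and 8 rows and 1 column from the NPY spot. The median distance of kept probes to that spot was 140 rows and 38 columns. For NRGN they were CNGA4 (r = 0.976, 9 rows and 3 columns away) and GPC2 (r = 0.965, 7 rows and 8 columns). These correlations describe 16 arrays that share pools and slides and carry no p. On the signal before detrending the first partners were S1PR5 for NPY (r = 0.950, 1 row and 5 columns) and LOC615150 for NRGN (r = 0.982, 38 rows and 58 columns).

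CSPG4 had 5 probes and only A_73_P323426 passed the filter. That probe read 44.5, 20.9, 6.95 and 14.4 at day 0, 119.8, 109, 113 and 76.8 on the probiotic, 1051, 947, 753 and 792 on the untreated and 65.4, 77.5, 209 and 207 on the LPS arrays. Its untreated arrays lay within a narrow band above every other array, at percentile 98.1 ± 0.73, and day 0 was lowest, with 3 of 4 arrays at background. The other CSPG4 probes were dim. On the untreated arrays A_73_P069141 averaged 51.1 ± 26.0 (SD, n = 4), A_73_P283746 35.8 ± 5.55, A_73_P163112 22.4 ± 12.99 and A_73_P480643 13.8 ± 11.6. They were above background on 4, 1, 0 and 0 of 16 arrays.

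Base composition was the same in the bright CSPG4 probe and in 3 of the dim ones, 55% G and C, with 45% in A_73_P163112. Probes of CSPG4 differed in their call on 13 of 16 arrays. The median among the 431 genes with 5 probes and any spot above background was 12, and 43.2% had 13 or more. The likest probes were ART3 (r = 0.980) and GALNT8 (r = 0.979), which lay 181 and 250 rows away. Before detrending they were CNIH3 (r = 0.979, 14 rows) and KCNJ8 (r = 0.971, 74 rows).

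SSPO had the most probes and the widest disagreement. A_73_P109171 gave 777, 10.3, 599.6 and 578 at day 0, 680.1, 309, 423 and 222 on the probiotic, 2335, 2995, 2142 and 3393 on the untreated and 1601, 253, 263 and 1212 on the LPS arrays. It was at percentile 99.6 ± 0.10 on the untreated arrays, the highest of any member, and all of these lay above the rest. Day 0 replicate 2, at 10.3, was at background although its 3 sister arrays read 578 or more. The LPS arrays split, with replicates 1 and 4 at 1601 and 1212 and replicates 2 and 3 at 253 and 263.

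The SSPO probe with the polyadenylation hexamer, A_73_118541, had another order of groups. Its net signal was 276, 301, 272 and 188 at day 0, 942, 852, 819 and 893 on the probiotic, 564, 1300.5, 1341 and 977 on the untreated and 665, 639, 702 and 518 on the LPS arrays. It was above background everywhere, day 0 lay below all other arrays, and probiotic and untreated arrays overlapped. Another probe, A_73_P109221, read 24.3, 52.4, 34.3 and 202 at day 0, 472, 146, 72.7 and 129 with probiotic, 66.7, 355, 189 and 129 in the untreated and 114, 114, 53.4 and 179 in the LPS group, and all 4 groups overlapped.

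The 6 remaining SSPO probes were above background on 0 to 4 arrays, and none of them passed the filter. Their net signal reached at most 114, on 1 array by A_73_P109216, a spot not called above background. Calls differed between SSPO probes on all 16 arrays. The 11 genes with 9 probes and any spot above background had a median of 14. The median gap between the highest and lowest SSPO probe on an array was 75.4 percentile points. CCDC85B (r = 0.986, 6 rows and 14 columns away) and SOBP (r = 0.976, 3 rows and 9 columns) were likest to A_73_P109171, and both were also first before detrending (r = 0.976 and 0.961).

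**Figure D2:**
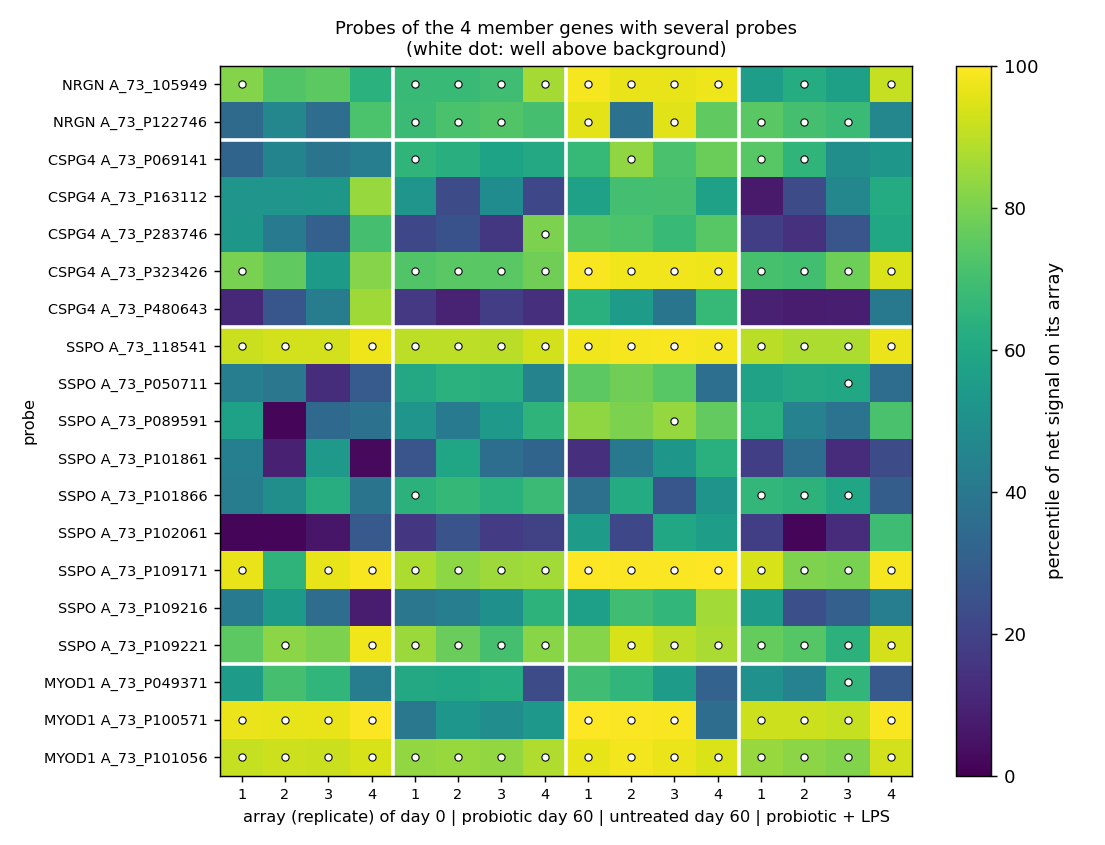
Percentile of net signal on each array (columns, replicates 1 to 4 of each group) for every probe of NRGN, CSPG4, SSPO and MYOD1 (rows), with a white dot where the spot was well above background. In CSPG4 1 of 5 probes and in SSPO 3 of 9 carried most of the signal, and the MYOD1 probe A_73_P100571 lost it on the 4 probiotic arrays and on untreated replicate 4.

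OC90, the otoconial protein, read 518, 519, 448 and 1.18 at day 0, 137, 131, 129 and 91.3 on the probiotic, 1001, 421, 866 and 256 on the untreated and 137, 98.8, 86.04 and 145 on the LPS arrays. Untreated arrays lay above all probiotic and LPS arrays. Day 0 lay between 448 and 519 on 3 arrays, among the untreated values, and at background on replicate 4. On that array 9.40% of the spots within 5 rows and columns of the OC90 spot were above background, against 40.2 to 43.6% on its 3 sister arrays. The likest probes were KCNF1 (r = 0.976) and GIPR (r = 0.972), 55 and 57 rows away, and before detrending ENPP6 (r = 0.972, 43 rows) and STK36 (r = 0.965, 359 rows).

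KRT35, the hair keratin, was the one member with the reverse order. Its probe read 2165, 2366, 1975 and 1652 at day 0, 1853, 2431, 1722 and 2330.2 on the probiotic, 451, 345, 387 and 460.1 on the untreated and 2455, 2609, 1801 and 1414 on the LPS arrays. Untreated arrays did not overlap with any other group, while day 0, probiotic and LPS arrays overlapped. By rank the contrast was smaller: the percentile was 95.3 ± 1.34 on the untreated, 94.9 ± 1.45 on the probiotic and 98.9 ± 0.46 on the day 0 arrays, so the untreated and probiotic groups overlapped within 1 SD. The spots around it were above background in 6.57 ± 1.88% of cases on the untreated and 57.8 ± 1.60% on the probiotic arrays. RASA4 was its likest probe with and without detrending (r = 0.984 and 0.972, 463 rows away).

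Other hair and epidermal keratins were mostly dark. Of their 42 probes 3 passed the filter (7.14%, against 27.9% of all probes). KRT81, KRT85 and KRT14 were above background on 15, 15 and 13 arrays. KRT14, the basal epidermal keratin, read 1724 to 2086 on the untreated, 479 to 658 on the probiotic, 321 to 470 on the LPS and -38.2 to 336 on the day 0 arrays, an order unlike that of KRT35. The hair keratins KRT85 and KRT81 overlapped between those groups, at 512 to 1113 on the probiotic and 48.7 to 633 on the untreated arrays and at 120.1 to 1146 and 258 to 731.

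MYOD1 gave the sharpest contrast and the sharpest conflict. A_73_P100571 read 839, 635, 676 and 795 at day 0, 8.32, 13.9, 12.4 and 10.97 on the probiotic, 1743, 2740.0, 1406 and -12.9 on the untreated and 1194, 1410.1, 1255 and 1949 on the LPS arrays. It was at background on all 4 probiotic arrays, at percentile 48.8 ± 6.09, and far above it on all day 0 and LPS arrays. In the untreated pool 3 repeats were bright and replicate 4 was below 0. On that array none of the spots within 5 rows and columns was above background, against 9.32 to 68.6% on its sister arrays. Of the same spots 11.02 ± 3.60% (SD, n = 4) were above background on the probiotic arrays. The share was 16.9 ± 7.74% on the day 0 and 31.1 ± 9.84% on the LPS arrays. The part of these darker surroundings in the probiotic contrast was not tested.

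As a bound, the scaled processed signal of A_73_P100571 was at least 28.8-fold higher with LPS than without it in probiotic blood, and at least 32.3-fold higher on the untreated than on the probiotic arrays. The bound sets the bright group's mean over its 4 arrays against, per probiotic array, the lowest signal of any probe well above background, and holds under this scaling only. Against day 0 it was at least 29.6-fold on the processed signal and at least 92.0-fold before detrending, higher at day 0. The overlapping probe A_73_P101056 showed no such gap. It read 239, 247, 207 and 56.9 at day 0, 394, 378, 343 and 307 on the probiotic, 366, 989, 601 and 351 on the untreated and 323, 320.0, 306 and 168 on the LPS arrays, above background throughout. Its probiotic arrays lay above all day 0 arrays and overlapped with the LPS and untreated ones.

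The other MYOD1 probe, A_73_P049371, was above background on 1 array and at most 59.9. MYOD1 probes thus differed in their call on 15 of 16 arrays. The median over the 2620 genes with 3 probes and any spot above background was 9, and 7.94% had 15 or more. Over the 16 arrays A_73_P100571 went with ARHGDIA (r = 0.991), whose spot lay 4 rows and 1 column away, and with CACNA1A (r = 0.966, 25 rows and 4 columns). Both were also its likest probes before detrending (r = 0.989 and 0.945). ARHGDIA, which leukocytes and other cells express, gave 4.61, 4.07, 13.4 and 11.9 on the probiotic, 982, 1756, 989 and -22.95 on the untreated and 1857, 2450.0, 1719.8 and 1541 on the LPS arrays, dark on the same 5 arrays as the MYOD1 spot.

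The pattern of that spot was rare. Of 2429 probes above background on every day 0 and LPS array, 20 (0.823%) were so on no probiotic array. Chosen after their values were seen, 7 of the 20 exceeded 500 on every LPS array: MYOD1, ARHGDIA and the ribosomal protein genes RPL7A, RPLP1, RPS26, RPL23A and RPL5. The places of these 7 spots by row and column are a description, and how they were scattered was not tested. MYOD1 lay at 163 and 12, ARHGDIA at 167 and 11, RPLP1 at 192 and 9 and RPS26 at 135 and 16. RPL7A lay at 343 and 70, close to RPL5 at 349 and 69, and RPL23A lay at 114 and 66. RPS26 read -6.40, -3.53, -6.05 and -4.03 on the probiotic and 15349, 24969, 19705 and 558 on the LPS arrays. No cause was tested.

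Few probes of other muscle genes passed the filter. Of 61 skeletal muscle probes 4 (6.56%) did so, and of 17 genes 13 were above background on no day 0 array, 8 on no probiotic, 7 on no untreated and 5 on no LPS array. The myogenic factors MYF5 and MYF6 were above background on none of the 16 arrays. MYOG, another myogenic factor, was so on no day 0 array but on at least 1 array of each of the other groups. The intermediate filament gene DES, also expressed in smooth muscle, read 4817 to 5712 on the probiotic, 73.7 to 727 on the day 0, -20.4 to 3319 on the untreated and 88.5 to 5706 on the LPS arrays. MYH7, a slow and cardiac myosin heavy chain, lay between 4.02 and 306 on the 16 arrays, and MYLPF, a fast myosin light chain, between -21.3 and 831.

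CLDN7, the epithelial claudin, read 136, 150.5, 136 and 55.7 at day 0, 789, 731, 609 and 345 on the probiotic, 788, 765, 476 and 545 on the untreated and 554, 689, 592 and 171 on the LPS arrays. Day 0 arrays lay below all others, and the remaining groups overlapped. By rank day 0 no longer lay below the probiotic arrays: the percentile was 90.3 ± 2.60 at day 0, 88.6 ± 0.62 in the probiotic and 97.04 ± 1.24 in the untreated group. Day 0 and probiotic overlapped by rank, and day 0 replicate 4, at percentile 94.0, stood above the rest of day 0. Epithelial genes around it were mixed, with 6 of 53 junction probes passing the filter (11.3%). Of 23 junction genes 14 were above background on no probiotic and 14 on no untreated array, with EPCAM, CLDN1 and TJP1 dark in both. The tight junction scaffold TJP3 read 2367 to 2996 on the probiotic and 75.4 to 170.2 on the untreated arrays. The groups overlapped for the simple epithelial keratin KRT8 (769 to 1042 and 129.8 to 1129) and for CLDN4 (340.1 to 436 and 84.9 to 371). GOSR2 (r = 0.996, 10 rows and 4 columns) and RPS6KL1 (r = 0.995, 21 rows and 13 columns) were likest to CLDN7, and before detrending FAM102A (r = 0.931, 1 row and 2 columns).

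The lists for the other tissues also had few kept probes. Among neuronal and synaptic genes 6 of 65 probes passed (9.23%), among glial and pericyte genes 7 of 52 (13.5%), among inner ear genes 3 of 18 (16.7%) and among spondin and thrombospondin repeat genes 3 of 22 (13.6%). The vesicle protein gene SYP, above background on 15 arrays, read 305 to 523 on the untreated and 242 to 274 on the probiotic arrays. The neurofilament gene NEFH ran the other way, at 46.1 to 79.9 on the untreated and 404 to 502 on the probiotic arrays, and the neuronal splicing factor RBFOX3 overlapped, at 64.5 to 166 and 137 to 149.9. Of the NPY receptors, NPY2R and NPY5R were above background on no array, and NPY1R on no day 0 or LPS array but on at least 1 probiotic and at least 1 untreated array.

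The glial and pericyte genes were not alike either. NES, an intermediate filament of neural precursors, overlapped at 174 to 580.1 on the probiotic and 567 to 1220.4 on the untreated arrays. The pericyte and endothelial adhesion gene MCAM read 3883 to 4466 and 291 to 507, and the glial factor OLIG1 74.4 to 98.8 and 132 to 359, the reverse of MCAM. Of the inner ear genes, the hair-cell actin bundler ESPN read 1449 to 6804 on the probiotic and 1486 to 2428 on the untreated arrays. OTOF (42.0 to 548 and 373 to 839) and STRC (91.8 to 212 and -53.9 to 258) overlapped as well.

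Probes of the members were rich in G and C. Their median was 55%, from 43.3 to 78.3%, and 21 of 23 lay above the array's median of 45%. On the untreated arrays the share of all probes above background was 11.2 ± 2.70% (SD, n = 4 arrays) below 45% and 13.9 ± 2.77% between 45 and 50%. It was 28.1 ± 5.13% between 50 and 55%, 23.4 ± 4.73% between 55 and 60%, where 10 member probes lay, and 29.0 ± 6.26% between 60 and 65%. Between 65 and 75% lay 3 member probes, SSPO A_73_P109171 and MYOD1 A_73_P101056 among them. There the share was 42.3 ± 8.02%, and at 75% or more 53.0 ± 15.6%. The share was thus highest in the richest probes but did not go up at every step. On the probiotic arrays the same shares were 32.4 ± 5.13%, 30.3 ± 4.25%, 38.3 ± 4.40%, 36.5 ± 4.17%, 36.6 ± 4.15%, 52.0 ± 4.83% and 51.8 ± 3.81%. Among the members the median content was 57.5% in the 12 probes that did not pass the filter and 55% in the 11 that did. The part of base composition in the member signals was not tested.

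**Figure D3:**
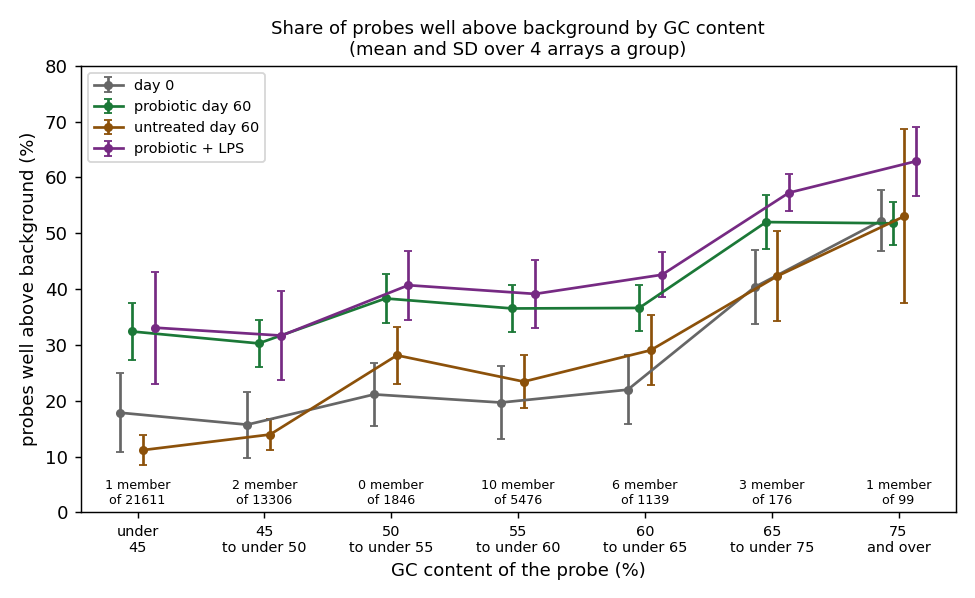
Share of all non-control probes well above background (mean and SD over 4 arrays a group) by G and C content of the probe, with the number of member probes and of all probes in each bin. Untreated and day 0 arrays stood at 11.2% and 17.8% below 45% and at 53.0% and 52.3% at 75% or more, with lower shares between 55 and 60% than between 50 and 55%, and 10 of the 23 member probes lay between 55 and 60%.

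Place on the array also differed between members. The median member spot had 40.1% of the spots within 5 rows and columns above background on the probiotic arrays, 35.0% on the LPS, 17.1% on the day 0 and 10.97% on the untreated arrays. Around CLDN7 and MYOD1 A_73_P101056 the probiotic shares were 68.7 ± 3.09% and 73.5 ± 2.71%. Around MYOD1 A_73_P100571, at background on those arrays, the probiotic share was 11.02 ± 3.60%, below that of the median member. Around the CSPG4 probe the share was 9.45 ± 2.10% on the untreated and 42.9 ± 11.9% on the probiotic arrays, so its untreated signal stood among darker neighbours. The part of place in the member signals was not tested.

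Comparisons between groups were then read from a limma fit over all kept probes, on log2 processed signal minus each array's 75th percentile. On all day 0 and untreated arrays and LPS replicate 4, that percentile of net signal lay below the lowest probe well above background. Untreated arrays had 42.47 to 49.03 against a lowest such probe at 78.35 to 128.8. Probiotic arrays had 53.37 to 150.5 against 40.003 to 50.57. Scaled differences thus hold an unlike scaling value, dim on the untreated and bright on the probiotic arrays. The call asked for both a Benjamini-Hochberg adjusted p below 0.05 and at least a 2-fold difference, and rests on technical spread between arrays of a pool, not on spread among cows. That spread was pooled per probe over all 4 groups, including day 0, where replicates 2, 3 and 4 alone were detrended. KRT35 there had scaled log2 values of 6.42, -0.21, -0.43 and -0.40, at net signals of 2165, 2366, 1975 and 1652. Standard errors and calls thus hold this processing difference also where day 0 is not compared. The comparisons share arrays with each other. Member differences are given with their standard error and no p, since the members were picked on the same signal, and nothing is read from their counts.

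Probiotic against untreated at day 60 asks how blood RNA differed with the supplement. Of the 11 kept member probes 5 were called, all lower in the probiotic pool, beside 23.3% of all 12198 kept probes called and 5.76% called lower. The direction of all calls depended on the scaling: 2136 were higher and 702 lower as reported, 5776 and 268 when scaled to the median, 941 and 2840 with cyclic loess, 2311 and 3197 with the percentile over detected probes and 3893 and 3755 before detrending. By fold in the authors' deposited table of group averages 159 were higher and 2252 lower. The log2 difference was -4.41 ± 1.39 for NPY, -4.17 ± 1.16 for NRGN, -4.28 ± 1.11 for CSPG4, -4.03 ± 1.37 for SSPO A_73_P109171 and -7.00 ± 1.29 for MYOD1 A_73_P100571. The median over the 11 was -3.39, and over all kept probes 1.57. OC90 had -3.39 ± 1.45 and KRT35 1.14 ± 1.34, neither called.

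Scaled to the median, NPY, NRGN, CSPG4 and SSPO A_73_P109171 lost their call, at -2.50, -2.26, -2.38 and -2.12, and MYOD1 A_73_P100571 kept it at -5.09. In the authors' deposited table of group averages the differences were smaller, -0.37 for NPY, -0.19 for NRGN, -0.50 for OC90, -1.80 for CSPG4 and -2.93 for MYOD1 A_73_P100571. With no filter, the 4 dim CSPG4 probes had differences from -2.46 to -1.89, around the median of -2.21 over all 43653 probes. Their sign is thus that of a typical probe under this scaling and is no agreement with the bright one. In untreated against day 0 the dim probes had -1.93 to 0.29, where the bright one had 6.75 and the median over all probes was 1.47.

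With 1 of the 8 arrays left out in turn, in fits that still held the day 0 and LPS arrays, CSPG4 and MYOD1 A_73_P100571 kept their call each time. MYOD1 A_73_P100571 moved to -8.56 without untreated replicate 4 and to -6.27 without untreated replicate 2, and CSPG4 lay between -4.46 and -4.17. SSPO A_73_P109171 lost it each time, at differences from -4.18 to -3.87. NRGN lost it without probiotic replicate 2 or 3 (-3.86 and -3.94 on the log2 scale), and moved to -4.96 without probiotic replicate 4. NPY kept it only without probiotic replicate 2 or untreated replicate 4, at differences from -4.83 to -4.12 over the 8 fits. Of the 5 called probes, the sign turned in SSPO A_73_P109171 alone, and only in the authors' deposited table of group averages (0.0089).

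LPS against no LPS in probiotic blood, an ex vivo positive control within 1 scan day, called 0.369% of all kept probes, 0.344% higher and 0.0246% lower. As numbers these were 42 and 3, against 147 and 35 before detrending, 163 and 64 without the 4 detrended arrays and 928 and 7287 by fold in the authors' deposited table. Among the members only MYOD1 A_73_P100571 was called, higher with LPS by 6.83 ± 1.29 on the log2 scale. That call was lost without probiotic replicate 1, at 6.56, and under quantile normalization with or without normexp, at 5.91 and 3.29. The other 10 members had differences from -1.004 ± 1.16 for NRGN to 1.42 ± 1.37 for SSPO A_73_P109171. The overlapping MYOD1 probe A_73_P101056 had -0.50 ± 1.22.

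**Figure D4:**
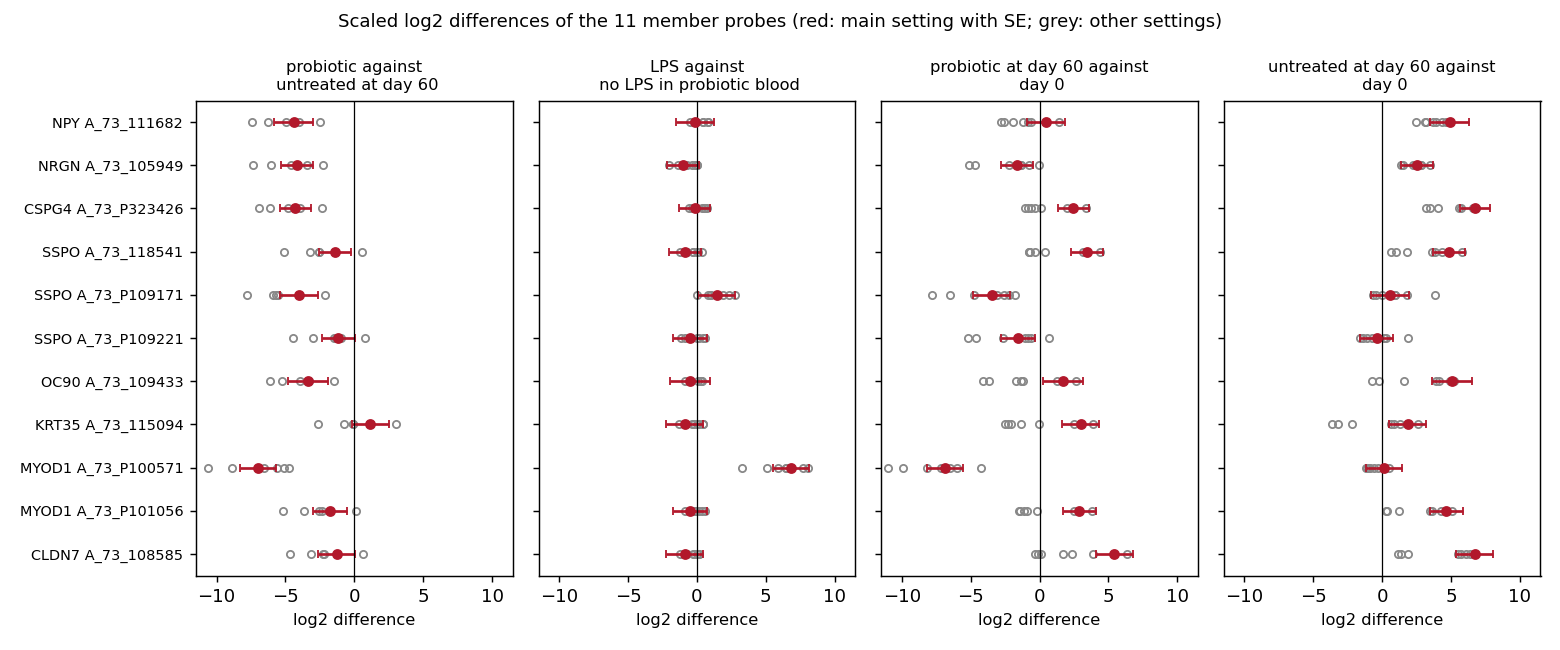
Scaled log2 differences of the 11 kept member probes in 4 comparisons, in red with the standard error from the fit as reported and in grey under the other settings, without the deposited averages. In probiotic against untreated NPY, NRGN, CSPG4, SSPO A_73_P109171, OC90 and MYOD1 A_73_P100571 stayed below 0; in probiotic against day 0 most probes lay on both sides of 0.

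Both comparisons with day 0 share its arrays, 3 of which were detrended. For probiotic at day 60 against day 0, 74.2% of all kept probes were called, 70.7% higher and 3.55% lower. These 8624 higher and 433 lower calls became 235 and 2153 before detrending, 145 and 219 without the 4 detrended arrays, 245 and 108 with normexp, 5706 and 1537 with cyclic loess and 4804 and 1744 with the percentile over detected probes. Of the members 7 were called, 5 higher and 2 lower. The differences were 5.43 ± 1.36 for CLDN7, 3.48 ± 1.16 for SSPO A_73_118541, 2.99 ± 1.34 for KRT35, 2.89 ± 1.22 for MYOD1 A_73_P101056, 2.46 ± 1.11 for CSPG4, -3.47 ± 1.37 for SSPO A_73_P109171 and -6.87 ± 1.29 for MYOD1 A_73_P100571. On the signal before detrending the 5 higher ones all turned sign, to -0.12, -0.75, -2.50, -1.40 and -1.06 in that order, and MYOD1 A_73_P100571 kept its own. CLDN7, SSPO A_73_118541 and MYOD1 A_73_P100571 stayed called whichever single array was left out. Without day 0 replicate 1 CLDN7 moved to 7.21 and SSPO A_73_118541 to 4.76, and without day 0 replicate 4 CLDN7 moved to 4.47. KRT35, MYOD1 A_73_P101056 and CSPG4 stayed called only without day 0 replicate 1, with differences from 2.40 to 4.68, 2.14 to 4.34 and 1.84 to 3.55 over the 8 fits. SSPO A_73_P109171 lost its call without day 0 replicate 3 or 4 or probiotic replicate 2 or 3 (-2.78, -3.02, -3.32 and -3.46), and moved to -4.497 without day 0 replicate 2.

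For untreated at day 60 against day 0, 6 members were called higher, beside 27.6% of all kept probes called, 27.1% higher and 0.492% lower. The 3302 higher and 60 lower calls became 749 and 3299 before detrending, 1347 and 4842 without the 4 detrended arrays, 2101 and 3496 with normexp, 3897 and 861 with the percentile over detected probes, 3950 and 551 with cyclic loess and 1665 and 273 with quantile normalization. The members were CSPG4 with 6.75 ± 1.11, CLDN7 with 6.72 ± 1.36, OC90 with 5.10 ± 1.45, NPY with 4.90 ± 1.39, SSPO A_73_118541 with 4.85 ± 1.16 and MYOD1 A_73_P101056 with 4.66 ± 1.22. Before detrending OC90 turned to -0.25, SSPO A_73_118541 and MYOD1 A_73_P101056 lost their call at 0.63 and 0.36, and CLDN7, NPY and CSPG4 kept theirs at 1.17, 2.47 and 3.22. Without the 4 detrended arrays OC90 was at -0.73. Scaled to the median only CSPG4 and CLDN7 stayed called. On the processed signal, the calls of CSPG4, CLDN7, SSPO A_73_118541 and MYOD1 A_73_P101056 were kept whichever single array was left out. Without day 0 replicate 1 these 4 moved to 7.83, 8.497, 6.13 and 6.11 and OC90 to 7.05. Without day 0 replicate 4 CLDN7 was at 5.75, MYOD1 A_73_P101056 at 3.90 and NPY at 6.46, and without day 0 replicate 3 CSPG4 was at 6.128. OC90 lost its call without day 0 replicate 2 or 4 (4.80 and 3.68), and NPY without day 0 replicate 2 or 3 (3.73 and 3.93). The net signals of OC90 at day 0 lay among its untreated ones on 3 of 4 arrays, as given above.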

How the data were processed

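Total RNA of pooled bovine whole blood was measured on 16 single-colour Agilent arrays. The members and gene lists were chosen with earlier results of these data known. Per the file headers and the submitters' processing notes, the authors deposited scanner files made with Agilent Feature Extraction 10.10.1.1, which hold a background-corrected intensity as processed signal, multiplied by a smooth surface (multiplicative detrending) on 4 arrays; the net signal is the intensity before that step, with no normalization between arrays. A deposited table holds 1 normalized value per probe and group, taken as log2, with its centring unknown, and the probe sequences.

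Member probes were those whose symbol in that table matched, joined by probe name; 22 of 23 gave the same symbol through a RefSeq accession. No genome of the array's build was used here, so positions are not given. The 1417 control spots and outlier spots were left out, spots of 1 probe averaged, and no spot was saturated. log2 processed signal minus each array's 75th percentile was fitted with limma 3.58.1 in R 4.3.3 (lmFit, eBayes, two-sided, 16 arrays in 1 fit, Benjamini-Hochberg over 12198 probes); the fit was tested on simulated data. Probes kept were well above background on all 4 arrays of at least 1 group. Named genes were all member probes, the 2 kept probes most correlated with each gene's brightest kept probe, and up to 3 genes per list above background on the most arrays; others are named for a shared run, as list markers at background, or after their values were seen. Alternatives were scaling to the median, quantile normalization, cyclic loess, the percentile over probes detected on all arrays, normexp with an offset of 50, signal before detrending, no filter, only the compared groups, the replicate number as a block, each array left out, the deposited averages and, chosen after seeing the data, the 4 detrended arrays left out. The number of arrays limits the precision. Python 3.11.15, pandas 2.3.3 and matplotlib 3.10.9 were used.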

Additional observations from a re-analysis of the deposited data

Results flagged for a closer look

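In 55 sets of 4 arrays (a member probe in a group where it was above background at least once), the gap of the highest or lowest array to its nearest sister was divided by the group's range and set against Dixon's 95% critical value. In 7 sets 1 array stood apart; chance flags about 1 in 20 groups. At day 0 it was replicate 4 for OC90 (ratio 0.863, at background while the others were bright), for CLDN7 (0.845, low) and for SSPO A_73_P109221 (0.842, high). On the probiotic arrays it was replicate 2 for NPY (0.906, high), replicate 4 for NRGN A_73_105949 (0.885, high) and replicate 4 for CSPG4 A_73_P283746 (0.971, the only array of that probe above background). On the LPS arrays it was replicate 4 for MYOD1 A_73_P101056 (0.887, low). Day 0 replicate 4 and LPS replicate 4 had the lowest share of spots above background in their groups, 8.26% and 22.5%.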

How the results depend on the processing

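Over the settings, the difference of NPY, NRGN, CSPG4, OC90 and MYOD1 A_73_P100571 kept its sign in probiotic against untreated, down to -0.19 for NRGN, -0.37 for NPY and -0.50 for OC90 in the deposited averages. Those averages followed the arrays poorly in this comparison (r = 0.146 over all probes). Members called there (5 as reported) were 1 when scaled to the median, 2 by fold in the deposited averages, 8 with quantile normalization, 9 with the percentile over detected probes or with normexp, 10 with cyclic loess, before detrending, with only the 2 groups or without the 4 detrended arrays, 11 of 23 with no filter, and 2 to 4 with 1 array left out. In probiotic against day 0 (7) they were 1 with normexp, 4 before detrending or with only the 2 groups, 2 without the detrended arrays, 15 with no filter and 3 to 8 with 1 array left out. In LPS against no LPS (1) they were 0 with quantile normalization or normexp, 3 by fold in the deposited averages and 0 to 1 with 1 array left out. In untreated against day 0 (6) they were 2 when scaled to the median, 1 with only the 2 groups, 10 with no filter and 4 to 7 with 1 array left out.

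Of all kept probes, those called in probiotic against untreated (2838) were 6044 scaled to the median, 6455 with quantile normalization, 5508 with the percentile over detected probes, 6725 with normexp, 7648 before detrending, 22652 with no filter, 8422 with only the 2 groups, 8654 without the detrended arrays and 1502 to 2156 with 1 array left out. In probiotic against day 0 (9057) they were 353 with normexp, 2388 before detrending, 22858 with no filter, 364 without the detrended arrays and 7392 to 10269 with 1 array left out. In LPS against no LPS (45) they were 29 scaled to the median, 104 with cyclic loess, 151 with the percentile over detected probes, 182 before detrending, 137 with no filter, 227 without the detrended arrays, 8215 by fold in the deposited averages and 20 to 87 with 1 array left out. In untreated against day 0 (3362) they were 641 scaled to the median, 1938 with quantile normalization, 5597 with normexp, 14633 with no filter, 71 with only the 2 groups, 6189 without the detrended arrays, 9308 by fold in the deposited averages and 1571 to 7239 with 1 array left out. The no-filter counts test more probes; the other causes were not tested.

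Called member differences turned sign in 24 cases, 21 of them in probiotic against day 0. There CLDN7 turned to -0.30 with normexp and -0.12 before detrending. KRT35 turned to -1.32 with cyclic loess, -0.067 with the percentile over detected probes, -2.31 with normexp, -2.50 before detrending and -2.09 without the detrended arrays, and MYOD1 A_73_P101056 to -0.89, -0.16, -1.12, -1.40 and -1.46 in the same order. SSPO A_73_118541 turned to -0.72 with cyclic loess, -0.77 with normexp, -0.75 before detrending and -0.35 without the detrended arrays. CSPG4 turned to -0.33 with cyclic loess, -0.59 with the percentile over detected probes, -1.06 before detrending and -0.81 without the detrended arrays. SSPO A_73_P109171 turned to 0.54 in the deposited averages there, and to 0.0089 in probiotic against untreated. OC90 turned to -0.25 before detrending and -0.73 without the detrended arrays in untreated against day 0. By the software's weaker call of a positive and significant spot, member spots called of 92 were 50 in place of 32 at day 0, 70 in place of 46 on the probiotic and 71 in place of 46 on the untreated arrays. Within 10 rows and columns in place of 5, the share above background around the median member on the untreated arrays was 12.3 in place of 10.97%.

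Arrays of different groups share only a number: same-numbered arrays correlated between -0.255 and 0.234 in their deviations from the group means. With the replicate block 5, 6, 1 and 6 members and 3446, 9152, 53 and 3633 of all kept probes were called, in the order above. Dim signal limits what can be said of the 12 member probes that did not pass the filter.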
